A study of Mus musculus with 20 samples.

Results

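The response to DEX was read in the NOTCH-active leukemias of a series of murine T lineage acute lymphoblastic leukemias (T-ALLs), as the difference between the DEX and the VEH library of each leukemia. The members were chosen by *Dtx1* (Deltex 1, a direct target of NOTCH1), whose mean over the libraries of a leukemia had to exceed 10 FPKM (fragments scaled to exon length and library size). This rule kept 6 of 10 leukemias, 20M, 2M, 73A, 73M, 78A and JW81, and so 12 of 20 samples. The mean level of *Dtx1* (chromosome 5, 120680202 to 120711927, GRCm38) was highest in 78A (118.6 FPKM), followed by 73M (109.6), 20M (109.0), 2M (90.0), 73A (55.9) and JW81 (42.9). The highest of the other leukemias was 4638 at 0.283 FPKM, so no leukemia lay near the threshold, and 5C, 8633 and JW14 were at 0.163, 0.157 and 0.166 FPKM. These levels chose the members and were not tested. Both other NOTCH marker genes went with the label: *Hes1*, a transcriptional repressor that NOTCH switches on, was between 8.36 and 124 FPKM in the 12 libraries and at most 0.612 FPKM in the other 8, and *Notch3*, a receptor gene that is itself a NOTCH target, was between 20.6 and 55.9 FPKM and at most 1.29 FPKM.

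The leukemias had been induced by insertional mutagenesis, for which F1 mice of C57Bl/6 and 129Sv/Jae parents were infected with the MOL4070LTR retrovirus. Leukemias 20M, 2M, 73A, 73M and 78A arose in mice that carried *Mx1-Cre* and had received pIpC, which induces Cre wherever the interferon-inducible *Mx1* promoter is active, a pattern that is not limited to T cells. JW81 arose in a WT littermate, so the genotype cannot be told apart from that single leukemia. Each leukemia was expanded in irradiated WT F1 recipients, and RNA of their whole bone marrow was sequenced after poly(A) selection, so that each library also held marrow cells of the host. The 2 libraries of a leukemia are told apart by the letters DEX and VEH in the column names of the table. DEX is a common abbreviation of dexamethasone and VEH of vehicle, but the treatment, dose and time are not given in the sources used here. The DEX columns of 2M and 73A could be matched to their sample by the name of the leukemia and not by the whole name. Each pair is therefore 1 leukemia with 1 library per arm, and p-values rest on how the DEX minus VEH difference spreads from leukemia to leukemia. With 1 library per arm, this spread also holds differences between the recipients and between the libraries of a pair.

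The 12 libraries held 12575231 (VEH of 73A) to 201222288 (VEH of 73M) expected counts, and protein-coding genes took 77.1% to 82.9% of them. The DEX libraries of 20M, 73M and JW81 stood apart. They carried 21.6, 61.0 and 47.5 CPM (counts scaled to the library total) on ribosomal RNA genes other than mitochondrial ones, where the other 9 libraries had at most 0.00497, and 129 to 142 genes with short exons had counts in them against 18 to 47. All 3 are DEX libraries, so for most gene lists the count is also given in the 3 pairs that lack such counts (2M, 73A and 78A).

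Glucocorticoids such as dexamethasone enter the cell and bind the glucocorticoid receptor, the product of *Nr3c1*, which leaves its chaperones, moves to the nucleus and binds DNA at glucocorticoid response elements. In thymocytes and in lymphoid leukemias the receptor raises a set of direct targets such as *Tsc22d3* and *Fkbp5*, and cells can then die through the BH3-only proteins of the BCL2 family, chief among them BIM, the product of *Bcl2l11*. NOTCH1 signalling in T-ALL drives *Myc* and anabolic growth, and FOXO factors, which the PI3K and AKT pathway holds in the cytoplasm, raise genes that restrain growth.

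Sequence upstream of 3 genes that rose in DEX libraries is shown because these windows hold a match to a FOXO or a glucocorticoid receptor motif, while the windows of *Bmf*, *Tsc22d3*, *Fkbp5*, *Ddit4*, *Dusp1* and *Nfkbia* held neither. The match is in 1 of 2 windows of *Bcl2l11* and in 1 of 3 windows of *Bbc3*, and the others of these genes held neither motif. The sequences are RefSeq windows of GRCm38.p6, from 250 bases before to 50 bases after a start site, 5′ to 3′ on the strand of the gene. Capitals mark the matches, which were searched on both strands: GNACA and TGTNC with any 3 bases between them for the glucocorticoid receptor and TGTTTAC (or its complement GTAAACA) for FOXO factors. The first holds both motifs and the others the FOXO motif.
*Txnip*, chr3:96557707-96558006, + strand: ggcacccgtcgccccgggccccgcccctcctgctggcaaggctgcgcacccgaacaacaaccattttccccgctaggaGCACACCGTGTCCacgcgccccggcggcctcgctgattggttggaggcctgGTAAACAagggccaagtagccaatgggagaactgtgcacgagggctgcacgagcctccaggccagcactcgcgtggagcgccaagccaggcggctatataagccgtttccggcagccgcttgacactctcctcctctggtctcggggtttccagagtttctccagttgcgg
*Bcl2l11*, chr2:128125788-128126087, + strand: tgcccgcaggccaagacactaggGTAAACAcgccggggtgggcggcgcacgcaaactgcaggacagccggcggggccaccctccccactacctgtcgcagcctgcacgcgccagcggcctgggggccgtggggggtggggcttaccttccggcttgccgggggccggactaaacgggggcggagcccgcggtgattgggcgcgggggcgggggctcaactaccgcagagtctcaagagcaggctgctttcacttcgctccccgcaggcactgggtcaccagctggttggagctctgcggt
*Bbc3*, chr7:16310011-16310310, + strand: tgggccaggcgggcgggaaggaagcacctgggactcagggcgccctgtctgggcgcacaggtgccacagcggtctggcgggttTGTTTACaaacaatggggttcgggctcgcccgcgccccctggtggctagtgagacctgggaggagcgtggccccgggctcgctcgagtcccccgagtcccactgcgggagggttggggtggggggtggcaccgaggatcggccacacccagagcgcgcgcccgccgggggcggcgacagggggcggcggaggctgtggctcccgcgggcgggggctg
The glucocorticoid receptor motif was in 0.475% of 32851 such windows, and by gene in 0.328% of the tested genes with a window, in 3 of 547 that rose and in 1 of 721 that fell. For the FOXO motif the shares were 3.65% of windows, 3.11% of tested genes, 25 of 547 (4.57%) and 19 of 721 (2.64%). CACGTG, the E-box that MYC and its partners bind, was in 7.15% of windows and in 12.1% of tested genes, with 52 of 547 (9.51%) among genes that rose and 120 of 721 (16.6%) among those that fell. These shares are descriptions of letters in a window, and no binding was measured.

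Over the 6 pairs, 1795 of 11412 tested genes (15.7%) differed between DEX and VEH libraries at an adjusted p under 0.05 in edgeR's quasi-likelihood test, with the leukemia as a block. Of these, 851 were higher in DEX libraries (7.46% of the tested genes) and 944 were lower (8.27%). Larger changes were mostly upward, since 248 genes rose and 61 fell by more than 2-fold. The direction was shared by 6 of 6 pairs for 1450 of the called genes (80.8%), and over all tested genes for 20.8%. The 3 pairs without short-RNA counts gave 1448 genes (12.7%), 664 higher (5.82%) and 784 lower (6.87%), and the 3 pairs with them gave 772 (6.76%), 448 higher (3.93%) and 324 lower (2.84%). Of the 1448 genes, 88.5% had the same direction in the other 3 pairs, and of the 772 genes 90.2% did. Both sets called 332 genes in the same direction, which is 22.9% of the first list and 43.0% of the second, and 1 gene in opposite directions. A model with a term for the short-RNA group left 680 genes past the threshold (5.96%), 322 higher (2.82%) and 358 lower (3.14%). Without 73A and 73M 526 genes passed (4.61%), 313 higher (2.74%) and 213 lower (1.87%). The count of any gene list in one of these fits is to be read against the shares of that fit.

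**Figure D1:**
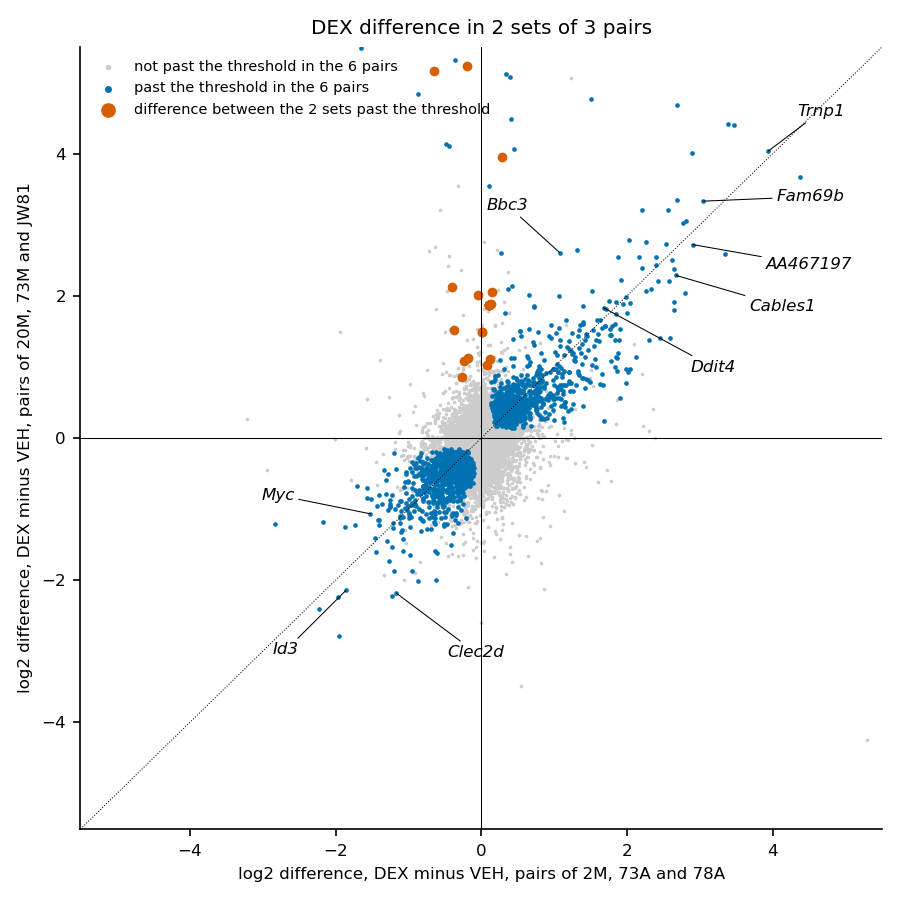
Log2 difference DEX minus VEH of each tested gene in the pairs 2M, 73A and 78A (horizontal axis) against that in 20M, 73M and JW81 (vertical axis), with both axes cut at 5.5 and 85 genes beyond them. Blue points are genes called in the 6 pairs, which lie mostly in the lower left and upper right. Orange points are genes whose difference itself differed between the sets, as far as these 24 fall within the axes. They lie above 0 on the vertical axis and near 0 on the horizontal one.

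Each leukemia was compared with the genes called without it. Genes called in the other 5 pairs had the same direction in the left-out leukemia most often in 20M (97.9% of genes), then 2M (96.2%), 73M (91.6%), 73A (88.8%), 78A (78.0%) and JW81 (75.9%). The median log2 difference, signed by the direction in the other pairs, lay between 0.51 (2M) and 0.65 (20M) in 4 leukemias, and was 0.24 for 78A and 0.29 for JW81. These lists differ from leukemia to leukemia, from 898 genes with a median change of 0.68 in the other 5 pairs (20M) to 1805 genes with one of 0.51 (JW81), so the order is a description. The medians of 78A and JW81 were thus the lowest of the 6, in a pair with and a pair without short-RNA counts. Without 20M the number of called genes was 898, without 73A it was 941 and without 2M it was 1037.

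Of the 16 genes of the glucocorticoid-induced list, 10 were tested, the others averaging below 1 FPKM (*Klf9*, *Zbtb16*, *Mt2*, *Errfi1*, *Cebpd* and *Pdk4*). Of the 10, 6 rose, 0 fell and 4 did not pass the test, where 7.46% of all tested genes rose, with a median log2 difference of 0.89 against -0.01 over all tested genes. In the 3 pairs without short-RNA counts 8 of 10 passed and with the short-RNA group in the model 5, all upward. *Ddit4* (REDD1, an inhibitor of the growth kinase mTORC1, on chromosome 10, 59949669 to 59951834) was between 19.4 and 62.1 FPKM in VEH libraries (median 40.0) and between 95.0 and 153 in DEX libraries (median 134). Every DEX library stood above every VEH library, and the log2 difference was 1.76 ± 0.16 (SE, n = 6 pairs, edgeR adjusted p = 0.000344). *Fkbp5*, an HSP90 co-chaperone that dampens the receptor and is among its most sensitive targets, was between 64.4 and 99.3 FPKM (median 82.8) in VEH and between 139 and 195 (median 178) in DEX libraries. Its groups did not overlap either, with a log2 difference of 1.13 ± 0.11 (edgeR adjusted p = 0.000461). Over all tested genes the VEH and DEX levels did not overlap for 2.02%.

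*Tsc22d3* (GILZ, a leucine zipper protein that mediates anti-inflammatory effects of glucocorticoids) was between 12.1 and 31.5 FPKM (median 17.5) in VEH and between 26.2 and 95.8 (median 45.6) in DEX libraries, and the lowest DEX library, of 2M, was under the highest VEH library, of 73M. It rose in 6 of 6 pairs, by 1.43 ± 0.19 on the log2 scale (edgeR adjusted p = 0.00186). *Dusp1*, a phosphatase that switches off MAP kinases, had a log2 difference of 1.18 ± 0.16 (edgeR adjusted p = 0.00179), and *Nfkbia*, the inhibitor that holds NF-kB in the cytoplasm, one of 0.74 ± 0.11 (edgeR adjusted p = 0.00298), each higher in 6 of 6 pairs. *Tgfbr3*, a co-receptor for TGF-beta, rose by 0.60 ± 0.17 in 5 of 6 pairs (edgeR adjusted p = 0.0429) and lost its call when 20M, 2M, 73A, 73M or 78A was left out and with the short-RNA group in the model. The 4 genes that did not pass were *Per1*, a circadian repressor (1.05 ± 0.38, adjusted p = 0.0925), *Mt1*, a metallothionein (0.56 ± 0.25, adjusted p = 0.153), *Rhob*, a small GTPase (0.40 ± 0.19, adjusted p = 0.181), and *Sgk1*, a kinase (0.07 ± 0.18, adjusted p = 0.829).

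**Figure D2:**
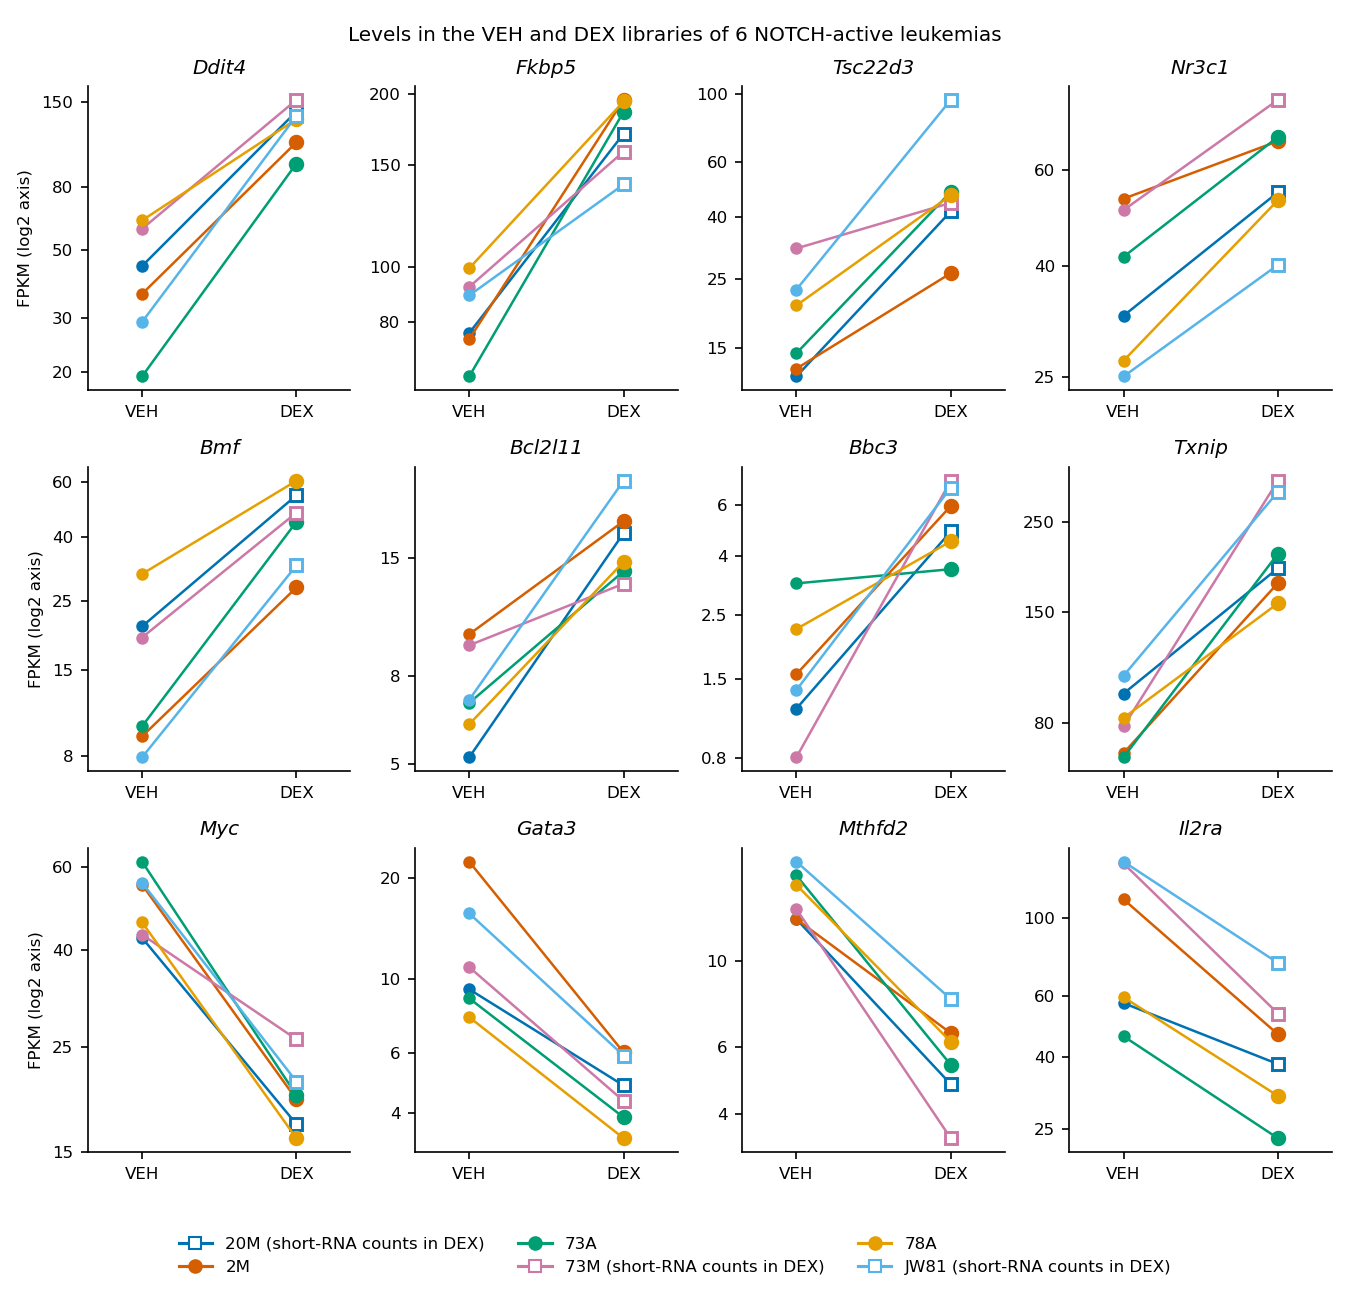
FPKM (log2 axis) of 12 genes in the VEH and the DEX library of the 6 NOTCH-active leukemias, each line being 1 leukemia and open squares the DEX libraries with short-RNA counts (20M, 73M and JW81). For *Ddit4*, *Fkbp5*, *Bcl2l11*, *Bbc3* and *Txnip* every DEX value is above every VEH value, and for *Myc*, *Gata3* and *Mthfd2* every DEX value is below.

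The receptor's own gene, *Nr3c1*, was higher in DEX libraries. It was between 25.1 and 53.2 FPKM (median 37.0) in VEH and between 40.2 and 80.9 (median 61.3) in DEX libraries. The ranges overlapped, but the DEX library was the higher one in each pair, by 0.75 ± 0.08 on the log2 scale (edgeR adjusted p = 0.000959), and by 0.72 in the 3 pairs without short-RNA counts. Of the 16 genes of the receptor machinery, all tested, 4 rose and 2 fell, where 7.46% of all tested genes rose and 8.27% fell, with a median of -0.05, and in the 3 pairs without short-RNA counts 3 and 0. *Nrip1*, a corepressor that nuclear receptors recruit, rose by 0.74 ± 0.07 (edgeR adjusted p = 0.000576). The coactivators *Ncoa1* and *Ncoa2* rose by 0.34 each (edgeR adjusted p = 0.0127 and 0.0107), and *Ncoa1* lost its call with the short-RNA group in the model. *Fkbp4*, the co-chaperone that helps the receptor reach the nucleus, was between 45.2 and 67.3 FPKM in VEH and between 25.3 and 44.2 in DEX libraries. Its groups did not overlap, with a log2 difference of -0.45 ± 0.10 (edgeR adjusted p = 0.0149). *Hsp90aa1*, the inducible HSP90 chaperone, fell by 0.48 on the log2 scale (SE 0.12, edgeR adjusted p = 0.0249). The calls of both chaperone genes were lost with the short-RNA group in the model, and in the 3 pairs without short-RNA counts their adjusted p was 0.0679 and 0.158. The genes that did not pass were between -0.31 (*Hspa8*) and 0.21 (*Crebbp*), with *Hsp90ab1* at -0.06, *Ptges3* at -0.26, *Stip1* at -0.23, *Dnajb1* at 0.07, *Ncoa3* and *Ncor1* at -0.08 each and *Ep300* at -0.03.

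In the BCL2 family the genes that rose were 3 BH3-only genes, whose products trigger cell death by binding the survival proteins. Of 17 family members 11 were tested, and 3 rose, 0 fell and 8 did not pass, where 7.46% of all tested genes rose, with a median of 0.17. *Bcl2l11* (BIM) was between 5.17 and 9.97 FPKM (median 6.97) in VEH and between 13.1 and 22.6 (median 15.9) in DEX libraries. Its groups did not overlap, and it rose by 1.22 ± 0.16 (edgeR adjusted p = 0.00180). *Bmf*, whose product is otherwise held at the cytoskeleton, was between 7.91 and 30.4 FPKM (median 14.5) and between 27.6 and 60.4 (median 46.2). Only the DEX library of 2M was under the highest VEH library, that of 78A, and each pair rose, by 1.63 ± 0.15 overall (edgeR adjusted p = 0.000396). *Bbc3* (PUMA, best known as a p53 target) was low in VEH libraries, at 0.805 to 3.22 FPKM (median 1.47), and at 3.61 to 7.30 (median 5.42) in DEX libraries. The log2 difference was 1.85 ± 0.36 (edgeR adjusted p = 0.00916), but the pairs were unequal, from 0.18 in 73A to 3.24 in 73M, and its call was lost with the short-RNA group in the model. In the 3 pairs without short-RNA counts fitted alone it was 1.075 and passed narrowly (edgeR adjusted p = 0.0494).

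Of the survival genes, *Bcl2* had a log2 difference of 0.07 ± 0.09 (adjusted p = 0.639), *Bcl2l1* (BCL-XL) of -0.20 ± 0.09 (adjusted p = 0.171) and *Mcl1* of 0.21 ± 0.08 (adjusted p = 0.103), and *Mcl1* passed under 4 of 20 alternatives, among them the short-RNA group in the model (0.37). The pore-forming *Bax* and *Bak1* were at -0.16 and 0.10, and the BH3-only genes *Bid*, *Bad* and *Pmaip1* (NOXA) at -0.12, 0.20 and 0.17. *Bcl2l2*, *Bcl2a1b*, *Bik*, *Hrk* and *Bok* were below the 1 FPKM mean, and *Bcl2a1d* was not tested. In the 3 pairs without short-RNA counts 4 members of the family rose and 0 fell, the fourth being *Mcl1* (0.38 ± 0.07, edgeR adjusted p = 0.0167).

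Of 18 tested FOXO targets and genes that restrain PI3K signalling, 5 rose and 1 fell (median 0.15), where 7.46% of all tested genes rose and 8.27% fell. *Txnip*, an inhibitor of glucose uptake and of thioredoxin, was between 66.0 and 105 FPKM (median 80.6) in VEH and between 158 and 316 (median 201.01) in DEX libraries. Its groups did not overlap, with a log2 difference of 1.47 ± 0.14 (edgeR adjusted p = 0.000461). *Sesn1*, a sestrin that restrains mTORC1, was between 9.99 and 13.7 FPKM in VEH and between 14.7 and 21.4 in DEX libraries, also without overlap (0.57 ± 0.07, edgeR adjusted p = 0.00148). *Pik3ip1*, an inhibitor of PI3K at the cell surface, rose by 0.84 ± 0.09 in 6 of 6 pairs (edgeR adjusted p = 0.000933). In the 3 pairs without short-RNA counts 6 genes of the list rose and 0 fell, and both with the short-RNA group in the model and without 73A and 73M 3 rose and 0 fell.

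*Myc* (chromosome 15, 61985391 to 61990374) was lower in every DEX library than in every VEH library. It was between 42.5 and 61.5 FPKM (median 50.4) in VEH and between 16.04 and 25.9 (median 19.6) in DEX libraries. The log2 difference was -1.30 ± 0.12 (edgeR adjusted p = 0.000368), and 73M, at -0.64, changed least. Among the 10 tested genes of the MYC and MXD network 2 rose and 3 fell, where 7.46% of all tested genes rose and 8.27% fell, and in the 3 pairs without short-RNA counts 2 and 2. *Mlxip* (MondoA, a glucose-sensing factor that drives *Txnip*) was between 5.02 and 9.74 FPKM (median 7.21) in VEH and between 10.02 and 24.7 (median 16.9) in DEX libraries. It rose without overlap, by 1.22 ± 0.08 (edgeR adjusted p = 5.82e-05). *Mxd4*, which competes with MYC for its partner MAX, rose by 0.77 ± 0.13 (edgeR adjusted p = 0.00602), and *Mnt*, another such competitor, fell by 0.58 on the log2 scale (edgeR adjusted p = 0.0235). Without 73A and 73M together both of these calls were lost.

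Ribosome biogenesis genes, many of which MYC is known to drive, fell or did not pass the test. All 30 genes of the list were tested, 16 fell and 0 rose, where 8.27% of all tested genes fell, and 30 of 30 had a negative log2 difference, with a median of -0.33. In the 3 pairs without short-RNA counts 22 fell, in the other 3 pairs 6 fell, and with the short-RNA group in the model 9 did, with 0 upward in each. *Polr1b*, a core subunit of RNA polymerase I, was between 8.88 and 13.5 FPKM (median 10.4) in VEH and between 4.38 and 7.79 (median 6.28) in DEX libraries. Its groups did not overlap, with a log2 difference of -0.74 ± 0.08 (edgeR adjusted p = 0.000764). *Nop2*, a ribosomal RNA methyltransferase, fell by 0.70, *Bysl*, which acts in small subunit assembly, by 0.60, and *Wdr75*, a nucleolar processing factor, by 0.57 on the log2 scale, each in 6 of 6 pairs.

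**Figure D3:**
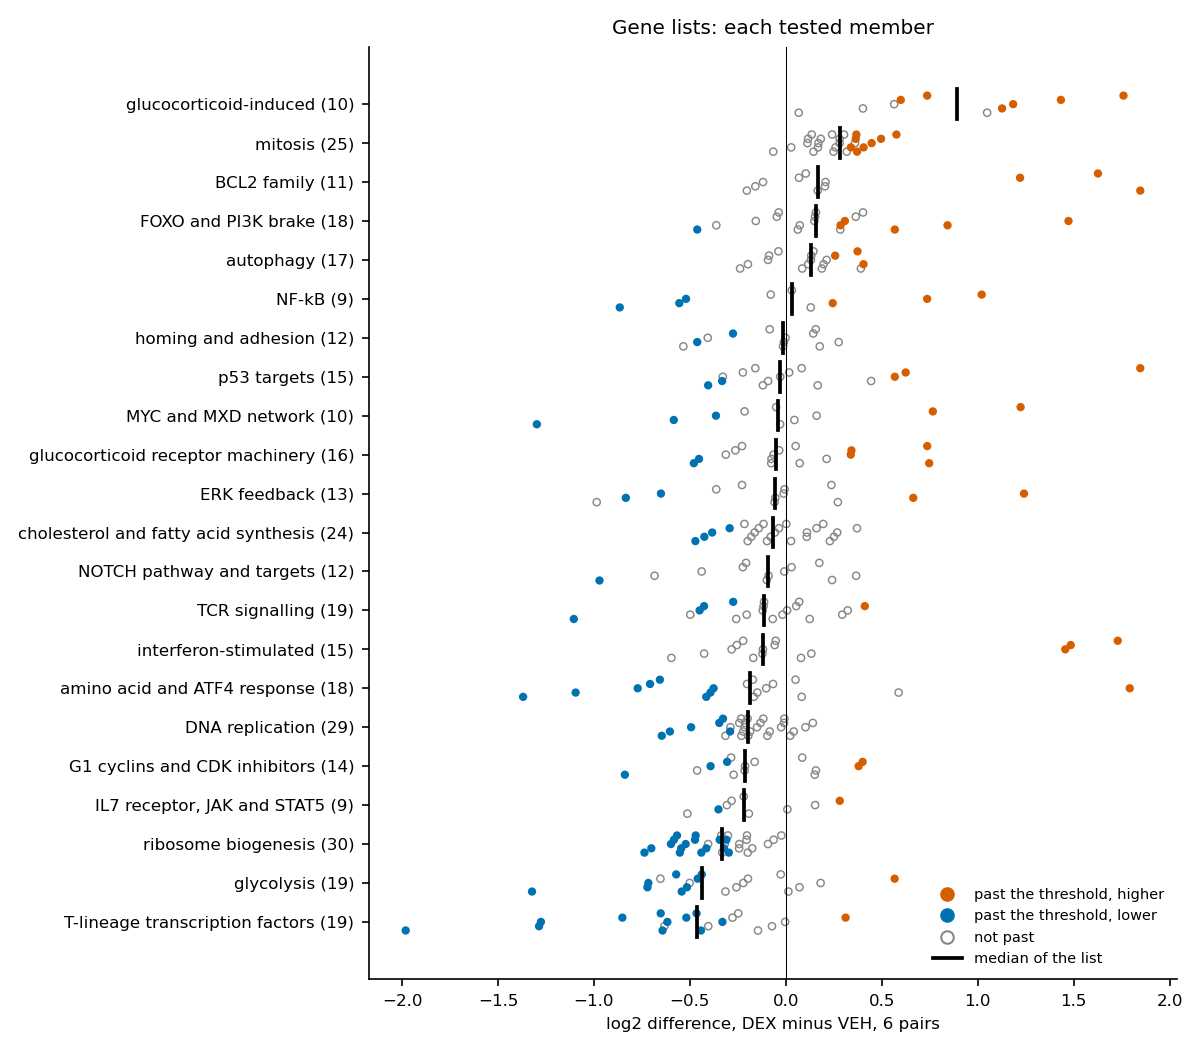
Log2 difference DEX minus VEH (horizontal axis) of the tested members of 22 pathway lists over the 6 pairs, 1 point per gene and a bar at the list's median. The glucocorticoid-induced list has the highest median, at 0.89, and the T-lineage transcription factors the lowest, at -0.47.

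Of 18 tested genes of amino acid supply and the ATF4 response 8 fell and 1 rose, where 8.27% of all tested genes fell. The counts were 10 and 1 in the 3 pairs without short-RNA counts, with the short-RNA group in the model 7 and 1, and without 73A and 73M 3 and 1. *Mthfd2*, the mitochondrial folate enzyme of one-carbon metabolism, was between 12.9 and 18.2 FPKM (median 14.7) in VEH and between 3.47 and 7.98 (median 5.78) in DEX libraries. The groups were well apart, with a log2 difference of -1.37 ± 0.12 (edgeR adjusted p = 0.000259). *Slc7a1*, a transporter of cationic amino acids, fell by 1.096 on the log2 scale (edgeR adjusted p = 0.00239) and *Slc38a2*, a transporter of small neutral ones, by 0.77 (edgeR adjusted p = 0.000813), both without overlap. The gene that rose was *Slc7a11*, the cystine transporter of glutathione synthesis, by 1.79 ± 0.16 in 6 of 6 pairs (edgeR adjusted p = 0.000336). Its level was low, between 0.651 and 3.27 FPKM in VEH and between 1.93 and 17.3 in DEX libraries.

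Of 19 tested glycolysis genes 8 fell and 1 rose (median -0.44), where 8.27% of all tested genes fell and 7.46% rose, in the 3 pairs without short-RNA counts 10 and 1, with the short-RNA group in the model 3 and 1, and without 73A and 73M 2 and 0. *Hk2*, the inducible hexokinase, fell by 1.32 on the log2 scale (SE 0.23, edgeR adjusted p = 0.00638), but by as little as 0.12 in JW81, and its call was lost without 73A and 73M. *Slc2a3*, a glucose transporter, fell by 0.46 (edgeR adjusted p = 0.00235), *Pfkfb3*, which makes the activator of phosphofructokinase, by 0.72 (edgeR adjusted p = 0.00323), and *Pfkp*, the platelet phosphofructokinase, by 0.57 (edgeR adjusted p = 0.00973). Of 24 tested genes of cholesterol and fatty acid synthesis 4 fell and 0 rose, against the same 8.27% of all tested genes, and 4 also fell in the 3 pairs without short-RNA counts. One gene that fell over the 6 pairs was *Fasn*, the fatty acid synthase (-0.47 ± 0.07, edgeR adjusted p = 0.00399). The others included the desaturase gene *Scd2* (-0.38) and the elongase gene *Elovl6* (-0.43). Without 73A and 73M together, where 1.87% of all tested genes fell, 0 of this list passed.

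Of 25 tested mitosis genes 8 rose and 0 fell, where 7.46% of all tested genes rose, with a median of 0.28. The count was 20 in the 3 pairs without short-RNA counts, where 5.82% of all tested genes rose, and 1 in the other 3 pairs, where 3.93% did. With the short-RNA group in the model it was 3 (2.82% of all) and without 73A and 73M 5 (2.74% of all). *Ccnb2*, a mitotic cyclin, was between 40.3 and 58.7 FPKM (median 50.3) in VEH and between 50.2 and 78.1 (median 71.1) in DEX libraries. The groups overlapped, while the DEX library was the higher one in 6 of 6 pairs, by 0.50 ± 0.07 (edgeR adjusted p = 0.00197). *Bub1b*, a spindle checkpoint kinase, rose by 0.58 ± 0.10 (edgeR adjusted p = 0.00573). *Ube2c* and *Birc5*, which act in the exit from mitosis and in chromosome segregation, rose by 0.36 and 0.40.

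Of 29 tested DNA replication genes 6 fell and 0 rose (median -0.20), where 8.27% of all tested genes fell. The number that fell was 4 in the 3 pairs without short-RNA counts, with the short-RNA group in the model 1, and without 73A and 73M 0. *Mcm4*, a subunit of the replicative helicase, was between 54.0 and 75.2 FPKM in VEH and between 36.9 and 53.04 in DEX libraries. The groups did not overlap (-0.49 ± 0.09, edgeR adjusted p = 0.00716), but the call was lost with the short-RNA group in the model and without 73A and 73M. *Mcm6* (-0.33), *Cdc6* (-0.60), which loads the helicase, and *Ung* (-0.65), which removes uracil from DNA, were also lower in 6 of 6 pairs. Of 14 tested G1 genes 2 rose and 3 fell, where 7.46% of all tested genes rose and 8.27% fell, and in the 3 pairs without short-RNA counts 0 and 1, where 5.82% and 6.87% of all did. *Ccnd3*, the D cyclin that thymocytes depend on, fell by 0.84 on the log2 scale (SE 0.15, edgeR adjusted p = 0.00678) in 5 of 6 pairs, with JW81 at 0.03. The CDK inhibitors *Cdkn2c* and *Cdkn2d* rose by 0.40 and 0.38 (edgeR adjusted p = 0.0116 and 0.0107) and *Cdk2* fell by 0.31 (edgeR adjusted p = 0.0210), and each of the 3 lost its call with the short-RNA group in the model.

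Of 19 tested T-lineage transcription factors 11 fell and 1 rose (median -0.47), where 8.27% of all tested genes fell, in the 3 pairs without short-RNA counts 13 and 0, and with the short-RNA group in the model 7 and 0. Without 73A and 73M, which leaves 4 pairs, 2 fell. *Gata3*, a factor that sets T cell identity (chromosome 2, 9857078 to 9890034), was between 7.70 and 22.3 FPKM (median 10.1) in VEH and between 3.35 and 6.04 (median 4.57) in DEX libraries. Every DEX library was below every VEH library, by -1.28 ± 0.12 on the log2 scale (edgeR adjusted p = 0.000365). *Id3*, an inhibitor of E proteins that the TCR induces, was between 1.42 and 19.7 FPKM in VEH and between 0.576 and 5.09 in DEX libraries, and its difference of -1.98 ± 0.18 (edgeR adjusted p = 0.000368) was the most negative among the genes named by size. *Ikzf2* (Helios) fell by 1.29 on the log2 scale (edgeR adjusted p = 0.00380) and *Tcf7* (TCF-1) by 0.64 (edgeR adjusted p = 0.00584). *Sox13*, a factor of gamma delta T cells that was not in the list, fell by 1.16 (edgeR adjusted p = 0.000233).

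Among 12 tested genes of the NOTCH pathway 1 fell and 0 rose, where 8.27% of all tested genes fell, and in the 3 pairs without short-RNA counts 4 fell and 0 rose. The 12 and the 4 include *Dtx1*, which chose the leukemias, so its part in these counts is a description and not a result. The gene that fell in the 6 pairs was *Il2ra* (CD25, the alpha chain of the interleukin 2 receptor), which was between 45.98 and 145 FPKM (median 86.3) in VEH and between 23.5 and 74.5 (median 42.4) in DEX libraries. The groups overlapped, since 73A was lowest and JW81 highest in both, and it fell in 6 of 6 pairs by 0.98 on the log2 scale (SE 0.11, edgeR adjusted p = 0.000799). *Hes1* had a log2 difference of -0.22 ± 0.27 (adjusted p = 0.597) and *Notch3* of 0.37 ± 0.15 (adjusted p = 0.118), and neither passed, while *Dtx1*, which chose the leukemias, is given as a description only, at -0.21. *Hes1* was lower in DEX libraries of 5 leukemias, by 0.33 to 0.90 on the log2 scale, and higher by 1.497 in JW81. With 1 leukemia left out, with or without the short-RNA group in the model, its difference ranged from -0.65 to -0.09. *Hes1* and *Notch3* kept direction and stayed without a call under 17 and 18 of 20 alternatives. In the 3 pairs without short-RNA counts *Hes1* passed, at -0.63 (edgeR adjusted p = 0.00819), and the difference between the 2 sets of pairs did not pass.

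TCR signalling genes gave 4 lower and 1 higher of 19 tested, where 8.27% of all tested genes fell and 7.46% rose. Among the 3 pairs without short-RNA counts 7 fell and 1 rose, in the other 3 pairs 0 passed, with the short-RNA group in the model 4 fell and 0 rose, and without 73A and 73M 1 fell and 0 rose. *Lcp2*, the adaptor SLP-76, was between 35.4 and 49.9 FPKM in VEH and between 25.1 and 35.02 in DEX libraries, without overlap (-0.45 ± 0.06, edgeR adjusted p = 0.00220). *Rasgrp1*, the exchange factor that activates RAS below the TCR, ranged from 2.29 FPKM in 73A to 210 in JW81 among VEH libraries and fell by 1.105 on the log2 scale (edgeR adjusted p = 0.00741). *Cd3g*, a CD3 chain, fell by 0.27, while *Ptprc* (CD45) rose by 0.41, without a call in either of the last 2 settings. *Cd5*, a TCR-regulated surface protein of T cells, fell by 0.81 on the log2 scale (edgeR adjusted p = 0.00626). Of 13 tested ERK feedback genes 2 rose and 2 fell, where 7.46% of all tested genes rose and 8.27% fell, and in the 3 pairs without short-RNA counts 1 and 2, where 5.82% and 6.87% of all did. *Spry1*, an inhibitor of RAS signalling, was between 0.523 and 5.34 FPKM in VEH and between 0.730 and 20.6 in DEX libraries and rose in 6 of 6 pairs (1.24 ± 0.22, edgeR adjusted p = 0.00688). *Etv5* rose by 0.66, and *Dusp4* and *Phlda1* fell by 0.65 and 0.83. The calls of *Etv5* and *Phlda1* were lost with the short-RNA group in the model and without 73A and 73M, and under 9 and 12 of 20 alternatives in all.

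The genes of largest change were named by size among protein-coding genes that averaged 5 FPKM or more and moved the same way in 6 of 6 pairs. Upward, 7 of the 12 were predicted genes (*Gm10801*, *Gm10719*, *Gm10721*, *Gm10720*, *Gm10800*, *Gm10717* and *Gm21738*) on chromosomes 2, 9 and 14, at log2 differences of 2.31 to 3.99. Reads of near-identical copies can be divided among them, so their values are uncertain, and each rose least in 73A, and 6 of the 7 rose most in 2M, *Gm21738* by 0.70 and 5.99, while *Gm10719* rose most in JW81 (5.29). The calls of *Gm10721*, *Gm10800*, *Gm10717* and *Gm21738* were lost with the short-RNA group in the model. *Fam69b*, which encodes a kinase-like protein of the endoplasmic reticulum (chromosome 2, 26628457 to 26636497), was between 3.56 and 6.03 FPKM (median 5.01) in VEH and between 33.0 and 57.0 (median 40.2) in DEX libraries. The groups were far apart, with a log2 difference of 3.19 ± 0.17 (edgeR adjusted p = 2.43e-05). *Agpat2*, an acyltransferase of phospholipid and triglyceride synthesis, which lies close by on chromosome 2 (26593057 to 26604417), was between 4.36 and 10.2 FPKM (median 7.14) and between 12.3 and 29.5 (median 26.4). It rose without overlap, by 1.76 ± 0.10 (edgeR adjusted p = 3.28e-05).

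*AA467197*, a small transcript that also hosts a microRNA (chromosome 2, 122636986 to 122641191), was between 4.21 and 16.9 FPKM (median 7.20) in VEH and between 27.9 and 135 (median 48.9) in DEX libraries. The groups did not overlap (2.82 ± 0.11, edgeR adjusted p = 2.72e-06). *Cables1*, a regulator of CDK phosphorylation, rose by 2.48 ± 0.19, *Ston1*, an endocytic adaptor, by 2.35 ± 0.14, and *Col27a1*, a fibrillar collagen gene, by 2.31 ± 0.36. Since 7 places of the 12 went to predicted genes, the next 5, chosen after their values were seen, are *Vwce* (2.08), *Sertad4* (2.01), *Cym* (1.97), *Thnsl2* (1.93) and *Agpat2*. *Cym*, which encodes the stomach protease chymosin, was at 0.315 to 113 FPKM in VEH and at 0.507 to 652 in DEX libraries, lowest in JW81 and highest in 2M in both.

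Downward, the 12 genes of largest change held *Id3*, *Mthfd2*, *Myc*, *Ikzf2*, *Gata3* and *Sox13* (above) and 6 others. *Ccr4*, a chemokine receptor, was between 9.75 and 12.3 FPKM (median 10.5) in VEH and between 1.74 and 5.26 (median 4.08) in DEX libraries. The VEH values lay close together and well above the DEX values (-1.4997 ± 0.18, edgeR adjusted p = 0.00133). *Clec2d*, a C-type lectin that NK receptors recognise, fell by 1.66 on the log2 scale (edgeR adjusted p = 0.00235) and *Nabp1*, a single-stranded DNA binding protein, by 1.43 (edgeR adjusted p = 0.00381), both without overlap. *Pdcd1*, the inhibitory receptor PD-1, fell by 1.24 (edgeR adjusted p = 0.000960) and *Esm1*, a secreted proteoglycan, by 1.60 (edgeR adjusted p = 0.00367). *Iltifb*, an interleukin 22 type cytokine gene, fell by 1.44 (edgeR adjusted p = 0.00710), from at most 32.5 FPKM, in 20M, and lost its call with the short-RNA group in the model.

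The marker lists of other cells moved with some of these results, and in RNA of whole marrow a smaller number of cells of a type and less RNA per cell cannot be told apart. The T lineage list of 12 genes summed to 716 to 1315 FPKM in VEH and 710 to 1183 FPKM in DEX libraries, lower in DEX in 5 of 6 pairs, by 0.18 or less on the log2 scale. Of its genes, all 12 tested, 2 fell, *Cd5* and *Cd3g*, and 1 rose, *Cd8b1*, where 8.27% of all tested genes fell and 7.46% rose. The log2 difference was negative for 6 and positive for 6. The calls of *Cd5*, *Cd3g* and *Cd8b1* held under 18, 10 and 12 of 20 alternatives. The neutrophil list of 14 genes summed to 1208 to 4767 FPKM in VEH and 790 to 2851 FPKM in DEX libraries, lower in 5 of 6 pairs and higher in 78A. Of its genes, all 14 tested, 3 fell, *Ltf*, *Camp* and *Mmp9*, where 8.27% of all tested genes fell. Of the 14, 0 fell and 1 rose in the 3 pairs without short-RNA counts (6.87% and 5.82% of all tested genes), 6 fell in the other 3 pairs (2.84% of all), and 0 passed without 73A and 73M (4.61% of all). The calls of *Ltf*, *Camp* and *Mmp9* held under 8, 5 and 7 of 20 alternatives. The monocyte and macrophage list summed to 76.1 to 451 and to 43.5 to 250 FPKM, lower in 5 of 6 pairs. The erythroid list summed to 5.10 to 796 and to 8.42 to 105 FPKM, higher in 3 pairs and lower in 3, most of all in 73M (-2.92 on the log2 scale) and 73A (-1.89).

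The NK list summed to 91.7 to 452 and to 78.9 to 278 FPKM, lower in DEX in 5 of 6 pairs by 0.20 to 0.70 on the log2 scale and higher in 78A (0.17). The B lineage list summed to 1.12 to 29.8 and to 1.15 to 5.57 FPKM, lower in 4 of 6 pairs, most of all in 73M (-2.42). The platelet list summed to 3.33 to 8.72 and to 3.66 to 8.65 FPKM, higher in 4 of 6 pairs, and the stroma and endothelium list to 23.2 to 26.6 and to 17.2 to 25.0 FPKM, the last lower in 6 of 6 pairs. Every marker gene in the table had counts in at least 1 of the 12 libraries. The part of these other cells in the results was not tested. With the short-RNA pairs and the pairs 73A and 73M left aside, 2M and 78A remain, in which 854 genes passed and 75 of the 110 called genes named here kept direction and call. Of all 1795 genes called in the 6 pairs, 598 were called in these 2, and the named genes were picked mainly by size or low p. Both pairs were also among the 6, so this overlap is not an independent check. The marker lists moved in these 2 pairs too, from -0.70 (NK) to 0.15 (platelet) in 2M and from -0.40 (stroma and endothelium) to 0.66 (monocyte and macrophage) in 78A on the log2 scale.

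**Figure D4:**
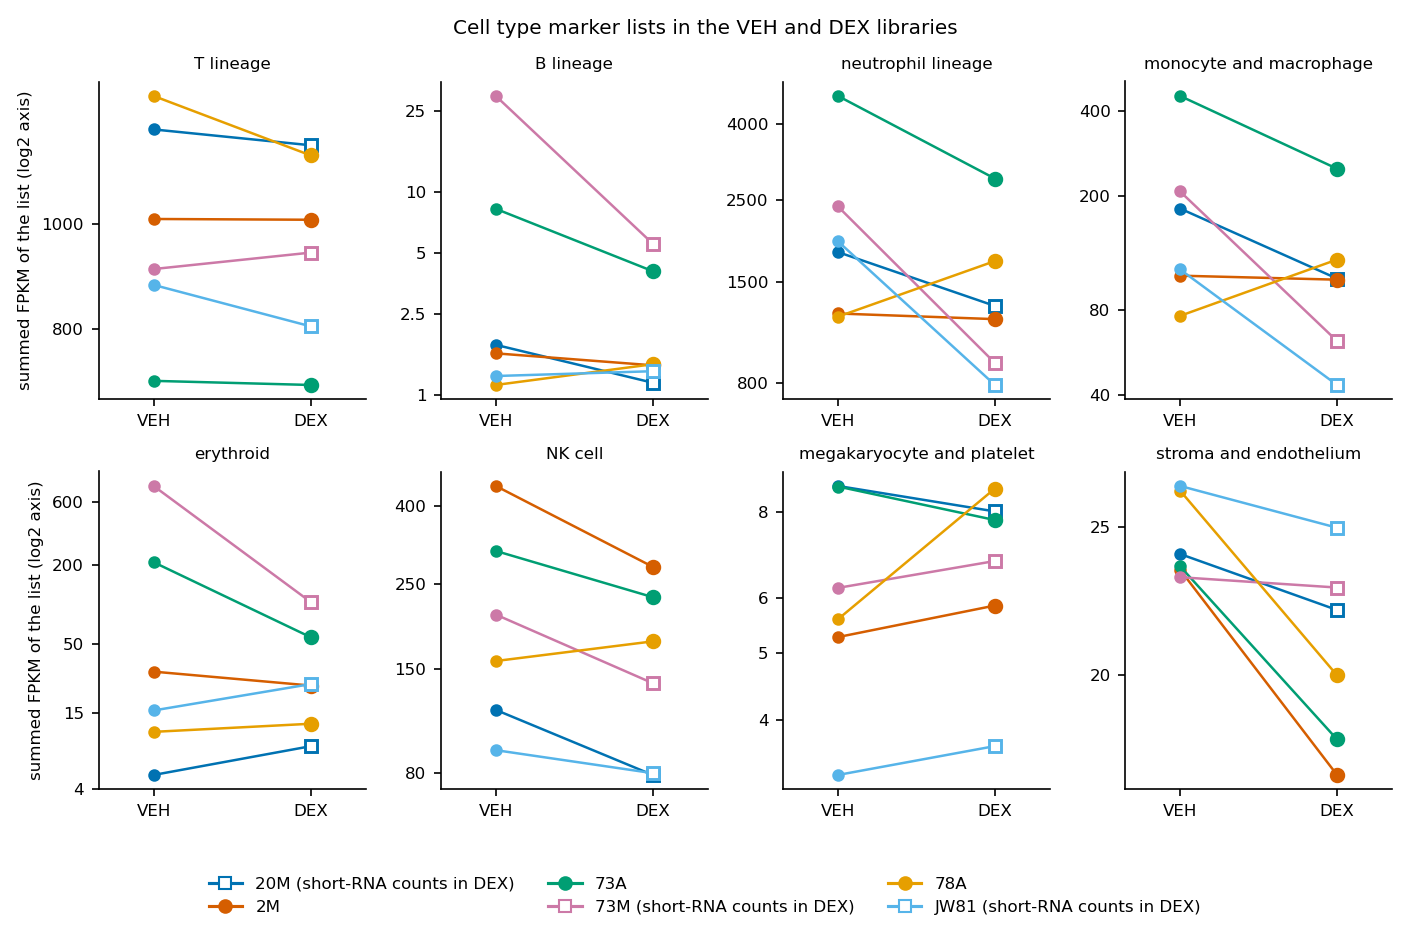
Summed FPKM (log2 axis) of 8 cell type marker lists in the VEH and DEX library of each of the 6 leukemias, joined by a line per leukemia. The T lineage sums stay between 710 and 1315 in both arms, while the neutrophil sums are lower in DEX libraries in 5 of 6 leukemias and the erythroid sums drop most in 73A and 73M.

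The sets with and without short-RNA counts had been formed by counts on ribosomal RNA genes, which went with counts on genes with short exons. Short-RNA genes that differ between the sets thus largely restate how the sets were chosen and are given as a description. The difference between the 2 responses passed for 24 of 11412 genes (0.21%), all of them higher in DEX libraries of 20M, 73M and JW81, and for 1 gene when protein-coding genes of at least 200 bases alone were tested, with 1555 genes at an unadjusted p under 0.05. They were 13 genes of small nuclear RNAs, 4 of small nucleolar RNAs, 1 other short RNA, 4 histone genes, 1 histone pseudogene and *Gm26917*, a long noncoding RNA. Of the 24, 9 shared identical values with another of them, as *Rnu1a1* and 6 further U1 copies did, so reads of these cannot be assigned to 1 gene. The histone genes were *Hist1h2an* (log2 difference between the sets 1.34), *Hist1h2af* (1.15), *Hist1h2ai* (0.98) and *Hist3h2a* (1.02), which encode replication-dependent histones whose messengers carry no poly(A) tail. The count and the directions depended on the setting, with 252 higher and 300 lower without 20M, 87 and 47 with DESeq2, and 236 and 469 without a filter on low values.

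The response of the 6 NOTCH-active leukemias was compared with that of the NOTCH-silent leukemias 5C, 8633 and JW14, all from WT mice, by a test of the difference of the responses. The genotype of the mouse and NOTCH state are therefore nearly confounded and cannot be told apart, since JW81 alone is NOTCH-active and from a WT mouse. Of 11332 genes 17 differed (0.15%), with 9 responses higher (0.0794%) and 8 lower (0.0706%) in NOTCH-active leukemias, and 1195 at an unadjusted p under 0.05. *Myc* fell in the 6 NOTCH-active leukemias, by 0.64 in 73M to 1.62 in 73A on the log2 scale, and had differences of 0.27 in 5C, 0.21 in 8633 and 0.28 in JW14. No silent leukemia overlapped the active ones, and the difference of responses was -1.54 ± 0.18 (edgeR adjusted p = 0.0162). *Gata3* went the same way, from -0.91 in 20M to -1.88 in 2M against 0.21, 0.08 and 0.11 (-1.40 ± 0.18, edgeR adjusted p = 0.0181). *Pprc1*, a coactivator of mitochondrial biogenesis, differed by -1.13 (edgeR adjusted p = 0.0181), *Sox13* by -1.13 (edgeR adjusted p = 0.0292) and *Cdca7*, a MYC and NOTCH target, by -0.72 (edgeR adjusted p = 0.0258).

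*Fam69b* rose in the 6 NOTCH-active leukemias by 2.72 or more and had differences of 0.07, 0.81 and 0.94 in 5C, 8633 and JW14, which gave a difference of responses of 2.56 ± 0.29 (edgeR adjusted p = 0.0129). Its neighbour *Agpat2* differed by 1.52 (edgeR adjusted p = 0.0258). *Taf1c*, a subunit of the factor that starts transcription by RNA polymerase I, differed by 1.21 (edgeR adjusted p = 0.0380), and *Hsdl1*, a dehydrogenase-like gene, by 1.23 (edgeR adjusted p = 0.0447). Of the 17, *Trnp1*, a nuclear protein, had the lowest p (3.40 ± 0.32, edgeR adjusted p = 0.00406), and *Mthfd2* (-1.21) and *Slc7a11* (1.88) were also among them. These 3 are outside the naming rule for this comparison and were chosen after their values were seen.

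Leukemia 4638 was also low in *Dtx1* (0.283 FPKM) but was in no fit, so the 17 calls do not take it into account. It had differences of 0.25 for *Myc* and 0.03 for *Fam69b*, within or below the range of the 3 silent leukemias in the fit. Its differences of 3.79 for *Trnp1*, -0.92 for *Gata3* and -0.83 for *Mthfd2* were nearer to the active ones. The count of 17 rested on single leukemias, being 0 without 8633, 1 without 5C, 80 without JW14 and 142 without JW81, while the differences themselves moved less, over 16 alternatives from -1.67 to -1.49 for *Myc*, 2.33 to 2.73 for *Fam69b*, 1.05 to 1.395 for *Taf1c* and 1.13 to 1.36 for *Hsdl1*. With the short-RNA group in the model, which also holds 1 library each of 5C (VEH) and JW14 (DEX), 12 genes passed, 10 of them among the 17, and *Taf1c* and *Hsdl1* lost their calls. For the glucocorticoid targets the difference of responses did not pass, with *Ddit4* at 1.03 ± 0.27 (edgeR adjusted p = 0.209), *Fkbp5* at 0.59 ± 0.17 (edgeR adjusted p = 0.238) and *Tsc22d3* at 1.02 ± 0.31 (edgeR adjusted p = 0.252). *Txnip* differed by 0.01 ± 0.25, its differences being 1.62, 1.73 and 1.08 in 5C, 8633 and JW14 and 0.96 to 2.10 in the NOTCH-active leukemias.

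**Figure D5:**
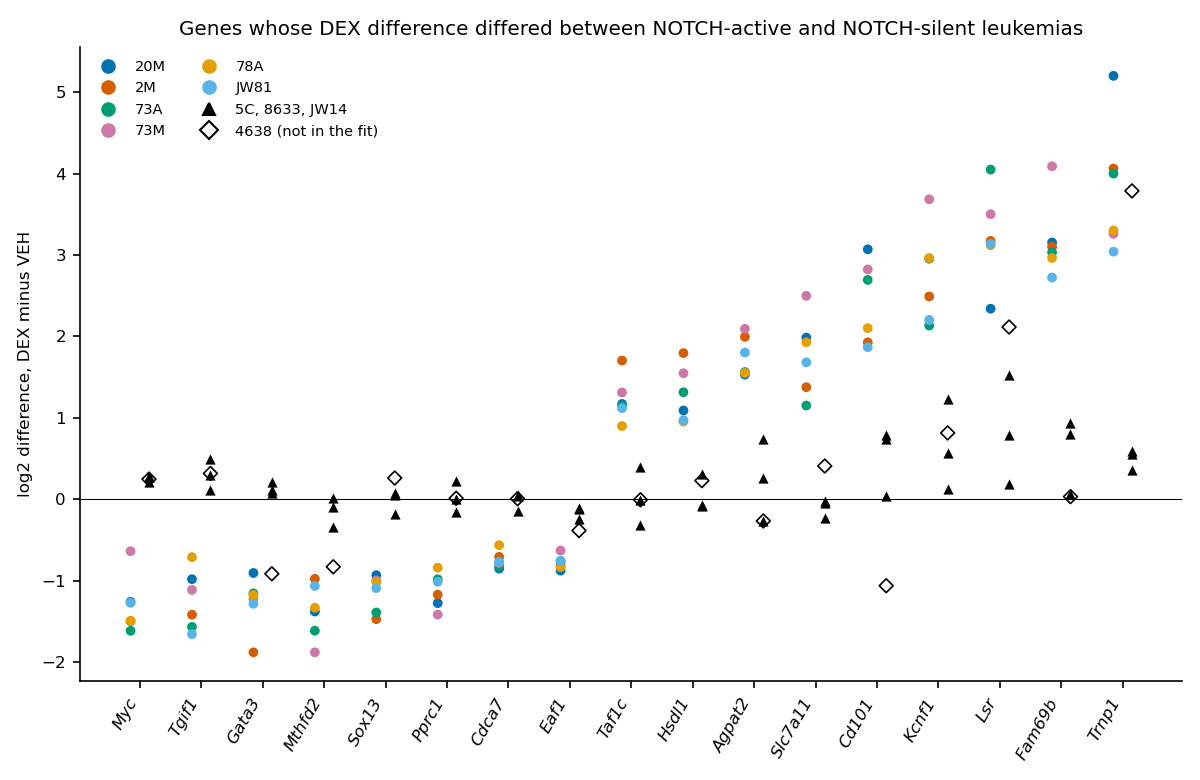
Log2 difference DEX minus VEH (vertical axis) of the 17 genes whose response differed (horizontal axis), in the 6 NOTCH-active leukemias (circles), in 5C, 8633 and JW14 (triangles) and in 4638 (open diamond). For *Myc* the 6 circles lie between -1.62 and -0.64 and the triangles between 0.21 and 0.28.

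Of the genes called in the 6 pairs, 1760 could be read in the other leukemias, where 54.3% had the same direction in 5C, 73.6% in 8633, 71.9% in JW14 and 66.6% in 4638, with median signed differences of 0.03, 0.14, 0.14 and 0.16 on the log2 scale. Short-RNA counts were also found in 1 library each of 5C (VEH) and JW14 (DEX).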

How the data were processed

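RNA of bone marrow was measured by poly(A) RNA sequencing. The authors aligned reads with Bowtie 2 to mm10 and quantified them with RSEM, and the deposited table holds expected counts per gene (39017 genes), although it is named for FPKM. The 20 columns were matched to samples by name, 17 in full and 3 (DEX of 2M, 73A and 4638) by leukemia only. The arm was read from the column names, and a letter S in them is not explained in the sources used here.

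FPKM were calculated from the expected counts, the library total and the merged exon length (GENCODE M21, GRCm38, found for 96.4% of genes). Counts were rounded and genes averaging 1 FPKM or more were tested with edgeR 4.0.16 in R 4.3.3 (quasi-likelihood test, TMM, leukemia as a block, Benjamini-Hochberg adjustment, adjusted p under 0.05). The pairing comes from the leukemia that both libraries were grown from. Standard errors were derived from the F statistic, and differences per leukemia are log2 CPM with a prior count of 2. Libraries with over 1 CPM on ribosomal RNA genes formed the short-RNA group. DESeq2 1.42.0 was an alternative, besides other normalizations, filters and left-out leukemias. Tables and plots used pandas 2.3.3, numpy 2.4.6 and matplotlib 3.10.9 under Python 3.11.15. On simulated counts of 11412 genes, edgeR recovered 95.0% of 200 genes with 2-fold changes with 6 pairs, and 76.0% with 3, and unchanged genes made up 9.95% and 6.17% of the calls. With 4-fold changes it recovered 99.5% and 97%, and unchanged genes made up 5.24% and 10.6% of the calls.

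The members and gene lists were chosen with earlier results of these data known. Named genes were the 12 largest changes in each direction (protein-coding, at least 200 exon bases, at least 5 FPKM on average, same direction in 6 of 6 pairs), up to 4 genes per list with the lowest adjusted p, all members of 4 lists, and up to 5 genes each way per test of a difference. Totals of 12575231 to 201222288 counts make low genes least precise in the shallowest library. Some genes that meet this rule and one allele are not reported here. The paper states no test of DEX against VEH.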

Additional observations from a re-analysis of the deposited data

Results flagged for a closer look

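Of 110 called genes named by the rule, 9 had 1 leukemia far from the other 5 in the log2 difference DEX minus VEH, its gap to the nearest exceeding the share of the range that Dixon's 95% critical value allows for 6 values, which chance does in about 1 in 20 groups. In 73M these were *Fam69b* (4.09) and *Myc* (-0.64). JW81 stood apart for *Tgfbr3* (-0.31), *Ccnd3* (0.034), *Fasn* (-0.16) and *Slc7a1* (-0.19), in each the smallest or an opposite change. The others were *Gm21738* in 2M (5.99), *Ccnb2* in 20M (0.75) and *Elovl6* in 73A (-0.85).

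The response differed between NOTCH-active and NOTCH-silent leukemias by a test of the difference for 17 genes. Those named by the rule were *Fam69b* (2.56), *Agpat2* (1.52), *Taf1c* (1.21), *Hsdl1* (1.23), *Myc* (-1.54), *Pprc1* (-1.13), *Gata3* (-1.40), *Cdca7* (-0.72) and *Sox13* (-1.13), all as log2 differences of the 2 responses.

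Between pairs with and without short-RNA counts 24 genes differed in the same kind of test. They were mostly short RNAs, which go with the ribosomal RNA counts that had divided the pairs. Among them were *Hist1h2an* (1.34), *Hist1h2af* (1.15), *Hist1h2ai* (0.98) and *Hist3h2a* (1.02).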

How the results depend on the processing

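The 110 called genes named were recomputed under 20 alternatives, of which 1742 values kept direction and call, 455 lost the call and 2 reversed. The 24 named genes without a call kept direction and side in 432 values, gained a call in 19 and reversed in 29. For the 9 genes that differed between NOTCH-active and silent leukemias, 100 of 144 values kept the call and 44 lost it. Depth limits low genes: below the 1 FPKM mean a difference was not tested.

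Over 6 pairs (1795 genes), leaving out 1 leukemia gave 898 to 1805. With no replicate block, so without the pairing by leukemia, 104 passed. The short-RNA group as a term gave 680, and leaving out 73A and 73M together 526. Chosen after seeing the data were the 2 pairs 2M and 78A alone (854), DESeq2 with the group term (1030), and the group term without 73M (818) or 73A (83). RLE factors moved the higher share of calls from 47.4% to 51.2%. The pairs without short-RNA counts (1448) gave 2262 without a filter and 409 to 1223 with 1 leukemia left out. The pairs with them (772) gave 1256 with DESeq2, 2207 without a filter and 314 (without 73M) to 1323 (without 20M). Their difference (24) was 134 with DESeq2, 705 without a filter, 1 with protein-coding genes alone, and 4 (without 73A) to 552 (without 20M). The difference from NOTCH-silent leukemias (17) was 206 with DESeq2, 151 without a filter, 26 with the CPM filter, 34 with protein-coding genes alone and 0 to 142 with 1 leukemia left out, or, added later, 3 without 5C with the group term. The causes were not tested, beyond fewer samples or genes.

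Reversed log2 differences were, with the group term, *Sgk1* -0.084 and *Ep300* 0.14, and with DESeq2 and that term -0.044 and 0.16. Without 73A and 73M they were *Sgk1* -0.21, *Dnajb1* -0.0077, *Ep300* 0.0066, *Bcl2* -0.080 and *Bid* 0.034. In 2M and 78A alone they were *Sgk1* -0.44, *Hspa8* 0.097, *Ptges3* 0.016, *Ep300* 0.10, *Bcl2* -0.11 and *Camp* 0.023. Thinning gave *Pmaip1* -0.043, and no replicate block *Hes1* 0.34. With 1 leukemia left out, with or without the group term, the ranges that crossed 0 were -0.44 to 0.23 for *Sgk1*, -0.44 to 0.0999 for *Hspa8*, -0.35 to 0.019 for *Ptges3*, -0.036 to 0.13 for *Dnajb1*, -0.083 to 0.14 for *Ep300*, -0.10 to 0.12 for *Bcl2* and -0.95 to 0.024 for *Camp*.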

Other observations

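Of 15 tested interferon-stimulated genes 3 rose and 0 fell, where 7.46% of all tested genes rose and 8.27% fell, with a median of -0.12. *Mx2*, an antiviral GTPase, was between 0.313 and 4.66 FPKM in VEH and between 0.933 and 11.7 in DEX libraries and rose in 6 of 6 pairs (1.73 ± 0.14, edgeR adjusted p = 0.000204). Its neighbour in function *Mx1* rose by 1.46 ± 0.20 (edgeR adjusted p = 0.00214). *Usp18*, which removes ISG15 and dampens interferon signalling, rose in 5 of 6 pairs by 1.48 ± 0.27 (edgeR adjusted p = 0.00710), with JW81 at -0.01, and lost its call without 73A and 73M. The other 12 genes did not pass.

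Of 9 tested NF-kB genes 3 rose and 3 fell, where 7.46% of all tested genes rose and 8.27% fell, and with the short-RNA group in the model 1 and 1. *Tnf*, the inflammatory cytokine, was between 3.46 and 9.01 FPKM in VEH and between 1.47 and 5.83 in DEX libraries and fell by 0.87 on the log2 scale (edgeR adjusted p = 0.00326). *Icam1*, an adhesion molecule, fell by 0.56 (edgeR adjusted p = 0.0108) and *Nfkb2*, a subunit, by 0.52 (edgeR adjusted p = 0.0170), both without a call once the short-RNA group was in the model. Of 15 tested p53 genes 3 rose and 2 fell, against the same shares of all tested genes, among them *Trp53* itself (-0.33 ± 0.07, edgeR adjusted p = 0.0133) and *Trp53inp1*, which acts in stress-induced death and autophagy (0.62 ± 0.17, edgeR adjusted p = 0.0385), both calls being lost with the short-RNA group in the model.

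Over all tested genes 7.46% rose and 8.27% fell. Of 9 tested genes of the interleukin 7 receptor pathway *Jak1*, the receptor's kinase, rose by 0.28 and *Il2rg*, the common gamma chain, fell by 0.35. These 2 kept their calls under 10 and 12 of 20 alternatives, and with the short-RNA group in the model 0 genes of this list rose. Of 17 tested autophagy genes 3 rose, *Sqstm1* by 0.26, *Atg9a* by 0.37 and *Atg14* by 0.40. Of 12 tested homing genes 2 fell, among them *Ccr9*, the thymus homing receptor (-0.28 ± 0.07, edgeR adjusted p = 0.0296), which kept its call under 8 of 20 alternatives. In the 3 pairs without short-RNA counts, and with the short-RNA group in the model, 0 of the autophagy genes passed, and in that model 0 of the homing genes did. No chromosome with 100 or more tested genes had a median log2 difference over 0.129 away from that of all tested genes in any of the 6 leukemias.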
